A study of Mus musculus with 16 samples.

Results

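Cells rich in the transcripts of thyrotropin subunits, proposed as thyrotroph-like cells of the pars tuberalis and called *Tshb*/*Cga* cells here, were 61 of 55,675 kept cells (0.110%) in single-cell libraries of the mouse hypothalamus and preoptic area, and 13 of 16 libraries held at least 1. Kept cells were barcodes whose detected genes numbered above 200 but below 4000, with mitochondrial genes taking less than 15% of the unique molecular identifiers (UMIs), each of which stands for 1 captured transcript. A kept cell was a *Tshb*/*Cga* cell when it held at least 2 UMIs of *Tshb* plus *Cga*, at least 2 of the 6 genes *Tshb*, *Cga*, *Chga*, *Pitx1*, *Epcam* and *Krt18*, and at most 1 of 15 exclusion genes of other cell types (*Mog*, *Mag*, *Agt*, *Aqp4*, *Meg3*, *Syt1*, *Stmn2*, *Snhg11*, *Flt1*, *Cldn5*, *C1qa*, *C1qb*, *Tmem212*, *Pomc* and *Dcn*). Because the cells were picked by these counts, their levels of all genes against other cells are given as a description, with no test.

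Thyrotropin, the pituitary hormone that drives the thyroid, is built from a beta subunit encoded by *Tshb* and an alpha subunit encoded by *Cga*, which the gonadotropins share. Thyrotrophs sit in the pars distalis, the main endocrine lobe, and in the pars tuberalis, a thin sheet of pituitary tissue that wraps the stalk and lies against the median eminence at the floor of the hypothalamus. Pars tuberalis thyrotrophs are known for reading the melatonin signal of night length through the receptor *Mtnr1a* and for acting on neighbouring tanycytes, where thyrotropin binds *Tshr* and sets the deiodinases *Dio2* and *Dio3*. A dissected hypothalamus can carry this tissue along.

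The series compared tamoxifen with its oil vehicle in wild-type mice (oil, n = 3; tamoxifen, n = 5) and in *Esr1* cKO mice (oil, n = 4; tamoxifen, n = 4), with 1 Drop-seq library per mouse. All mice were reported as female, on a mixed CD-1;129P2 background and 8 to 10 weeks old at the start, and each received 28 daily subcutaneous injections of 0.1 mg/kg tamoxifen or of vehicle alone, the last 2 hr before collection. *Esr1* cKO mice carried a floxed *Esr1* allele, which encodes estrogen receptor alpha, and an Nkx2-1-Cre transgene, and wild-type mice were littermates without Cre. The transgene acts wherever *Nkx2-1* was once active, which includes cells of the pituitary, thyroid and lung, where the study's text describes *Esr1* expression as unaltered in the *Esr1* cKO mice. The total UMI count of a library ran from 2,634,253 to 8,038,158, and its kept cells carried 1,717,573 to 5,457,033 UMIs.

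The targeted gene was low in all groups. *Esr1* stood at 16.4, 41.7 and 90.8 UMIs per 1000000 UMIs (CPM) in the kept cells of the wild-type oil mice, at 40.5 to 69.2 in the 5 wild-type tamoxifen mice, at 33.2 to 38.2 in the 4 *Esr1* cKO oil mice and at 10.1 to 60.3 in the 4 *Esr1* cKO tamoxifen mice. The genotypes overlapped. Drop-seq tags the 3′ ends of transcripts, so a UMI of *Esr1* does not show whether an upstream exon was removed, and these values do not check the deletion. The *Tshb*/*Cga* cells held 0 UMIs of *Esr1* and 0 of *Nkx2-1* in all libraries together, which at their 57,640 UMIs allows up to 52.0 CPM each (3 UMIs, counting error only).

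Before the results, 3 features of the libraries bear on them. The libraries of wild-type oil 3 and *Esr1* cKO tamoxifen 3 stood apart from the others on the first principal component of the summed counts, and their barcodes had been deposited from 100 genes upwards where the other libraries began at 20. Next, 2,832 of 142,084 distinct 12-base barcodes occurred in at least 2 libraries, and the sharing was strongest within 4 sets of 4 libraries, except that wild-type oil 2 also shared 67 to 191 barcodes with each library of a second set, against 81 to 167 with those of its own. Of the sets, 3 held 1 library of each group and the remaining one held 2 wild-type tamoxifen, 1 *Esr1* cKO oil and 1 *Esr1* cKO tamoxifen library. Of the 61 *Tshb*/*Cga* cells, 6 had a barcode that also occurred elsewhere, and 4 of these were found with far more UMIs, 32,776 to 59,397, in another library of their set. Those deep barcodes were themselves rich in *Tshb*, and the *Tshb*/*Cga* cell held 0.695% to 1.74% as many UMIs. The comparisons of the cells' share and of genes within them were therefore also run without these 4 cells. The third feature is depth: the *Tshb*/*Cga* cells held a median of 730 UMIs and 529 genes, against 677 UMIs and 489 genes in all other kept cells, so a gene absent from single cells is not shown to be silent in them.

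Counting the cells around the rule shows what it left out. Of all kept cells, 116 held 2 or more UMIs of *Tshb* plus *Cga*. Among them, 61 passed, 13 had no second gene of the 6, and 42 were set aside for carrying 2 or more exclusion genes. Of the 61, 31 also carried exactly 1 exclusion gene, mostly *Meg3* (16 cells) or *Snhg11* (12 cells). Those 42 cells were deeper, with a median of 1,778 UMIs, and mostly carried the same neuronal transcripts, *Meg3* (36 cells) and *Snhg11* (32 cells). They carried the genes of the rule, with *Chga* in 41 cells at a median of 50 UMIs, 473 UMIs of *Tshb* and 272 of *Cga*. In addition, 2 of them held *Lhb*, the luteinizing hormone beta subunit, at 21 and 10 UMIs, and 4 held *Gnrhr*, the receptor of gonadotroph cells, whereas no *Tshb*/*Cga* cell held either. No doublet caller was run, and whether the 42 are mixtures of 2 cells was not tested. At the lower edge, 11 cells passed with exactly 2 UMIs of *Tshb* plus *Cga* (median 594 UMIs per cell), and 29 kept cells that met all other terms held only 1 (median 483). Both edges carried *Chga*, with 190 UMIs in the 11 cells and 398 in the 29.

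The name pars tuberalis thyrotroph was checked against markers. *Tshb* was found in 52 of the 61 cells and *Cga* in 43, with both in 34, *Tshb* alone in 18 and *Cga* alone in 9. In classes that should lack the gene, *Tshb* was found in 0.236% of 1,697 ciliated ependymal-like cells (median 1,504 UMIs), 0.708% of 1,130 tanycyte-like cells (median 1,274 UMIs) and 0.554% of 8,308 neuron-like cells (median 1,838 UMIs), all of which were deeper. The 46 neuron-like cells among these held 233 *Tshb* UMIs, and whether such UMIs come from free RNA, mixed droplets or the cells themselves was not tested. *Pitx1*, a regulator of the developing pituitary, was present at 659 CPM against 2.82 in all other kept cells. *Lhx3*, also a pituitary regulator, had 9 UMIs, 7 of them in cells with almost no *Chga* described below, and *Eya3*, a photoperiod co-activator of *Tshb* in the pars tuberalis, had 29 UMIs in 13 cells (503 CPM against 28.2). *Mtnr1a* had 1 UMI in all, and *Mtnr1b* 0. Of the genes taken as marks of pars distalis thyrotrophs, *Trhr*, the receptor for thyrotropin-releasing hormone, was at 0 and *Pou1f1* at 1 UMI, but *Gata2* was found in 27 cells of all 13 libraries at 920 CPM (95% Poisson interval 689 to 1,203) against 39.4. Growth hormone (*Gh*), prolactin (*Prl*), *Lhb* and the follicle-stimulating hormone beta subunit (*Fshb*) were at 0, each with a limit of 52.0 CPM, and *Pomc*, an exclusion gene, was at 0 too. Of the 25 pituitary transcription factors listed, 16 had a UMI, beside 51.1% of the 19,542 genes with 30 or more UMIs in kept cells, and 2 of the 5 that reached 52.0 CPM in other kept cells were higher. *Tshb*, *Cga* and *Pitx1* belong to the rule, which fixed their presence, so the check rests on the other markers: *Eya3* and a few UMIs of *Lhx3* were found, the melatonin receptor was near 0 at this depth, and 1 of the 3 pars distalis markers was present. The cells are therefore called by their genes.

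The regulatory DNA of both subunit genes is shown because *Tshb* and *Cga* define the cells. The sequences are the 250 bases before the RefSeq start of each gene on its own strand (build GRCm38.p6), 5′ to 3′, for *Tshb* at chr3:102782715-102782964, minus strand, and for *Cga* at chr4:34893529-34893778, plus strand. Capitals mark matches to the motif of GATA factors, spelled AGATAA, to the core of a TATA box, spelled TATAAA, or to a motif of Lhx-type homeodomain factors, spelled TAATTA, each searched on both strands.
Tshb: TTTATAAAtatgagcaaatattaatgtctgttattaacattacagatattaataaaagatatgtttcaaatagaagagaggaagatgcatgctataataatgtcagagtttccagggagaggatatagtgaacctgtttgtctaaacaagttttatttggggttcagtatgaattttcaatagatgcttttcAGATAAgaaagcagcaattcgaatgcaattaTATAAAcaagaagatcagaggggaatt
Cga: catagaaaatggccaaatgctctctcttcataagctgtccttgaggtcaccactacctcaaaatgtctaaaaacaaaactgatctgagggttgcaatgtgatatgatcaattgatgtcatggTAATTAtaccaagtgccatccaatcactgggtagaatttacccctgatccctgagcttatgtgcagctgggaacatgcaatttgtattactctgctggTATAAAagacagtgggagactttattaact
In *Tshb*, AGATAA began 58 bases and TATAAA 27 bases before the start, and a pair of overlapping TATAAA matches on opposite strands lay at the far end. In *Cga*, TATAAA began 30 bases and TAATTA 128 bases before the start. AGATAA is held by 9.99% of 32,851 such windows of the genome, TATAAA by 12.4% and TAATTA by 4.84%. Neither window held the D-box TTATGTAA (0.819% of windows), the element read by *Tef* and *Hlf*, the cyclic AMP element TGACGTCA (1.55%) or its shorter form TGACG (17.8%), or TAATCC (6.25%), a motif of bicoid-type homeodomain factors. The shorter D-box form TTATGT (8.44%), left in lower case, occurred once in *Cga*, 72 bases before the start. These are matches of letters and say nothing of binding.

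Single cells differed widely in the hormone. The median cell held 2 UMIs of *Tshb* and 1 of *Cga*, and 4 cells held 118, 84, 27 and 26 UMIs of *Tshb*, together 255 of the 417 *Tshb* UMIs of all 61 cells. The next highest cell had 12. The cells with 118 and 26 came from *Esr1* cKO tamoxifen 4, the one with 84 from wild-type tamoxifen 4 and the one with 27 from *Esr1* cKO tamoxifen 1. *Tshb* chose these cells, so no pattern over conditions is read from them: the cells set aside for exclusion genes held up to 115 and 61 *Tshb* UMIs, and 4 of the 8 Tshb-rich barcodes over the gene limit, described below, came from oil mice. *Cga* was more even, with 19 UMIs in the highest cell and 7 in the next. *Chga*, which encodes the granule protein chromogranin A, was found in 57 cells at a median of 20 UMIs, and its highest cells had 78, 76 and 75.

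A small set of the cells had another profile. In 5 cells, from 4 libraries, *Chga* was at 0 to 2 UMIs and *Tshb* was at 0. In them *Cga* alone met the rule's term of 2 UMIs of *Tshb* plus *Cga*, at 19, 7, 3, 2 and 2 UMIs. The same 5 cells held 75 of the 104 UMIs of *Epcam*, an epithelial adhesion molecule, and 40 of the 83 UMIs of *Krt18*, a keratin. Both are genes of the rule. A cell without *Tshb* and *Chga* could pass only with *Pitx1*, *Epcam* or *Krt18* beside *Cga*. The rule thus favoured these genes in those of the 5 with 0 *Chga* UMIs. A cell of wild-type tamoxifen 5 with 2 UMIs of *Chga* met the rule by *Cga* and *Chga*. Genes chosen after their values were seen were also concentrated in the 5 cells. They included 115 of 118 UMIs of *Anxa1*, an annexin, and 63 of 66 UMIs of *Cldn10*, a claudin. Of *Wfdc2*, a secreted protease-inhibitor-like protein, 62 of 74 UMIs lay in the 5 cells. Of the 5, 1 was the deepest cell of all, with 7,345 UMIs (12.7% of the UMIs of the 61 cells) in wild-type tamoxifen 5. They held 0 UMIs of *Cck*, *Timeless* and *Eya3*. The remaining 56 cells held all 417 *Tshb* UMIs, at 9,600 CPM, and 1,607 of the 1,609 *Chga* UMIs. The plot of *Chga* and *Epcam* against *Tshb* in each cell shows the split.

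**Figure D1:**
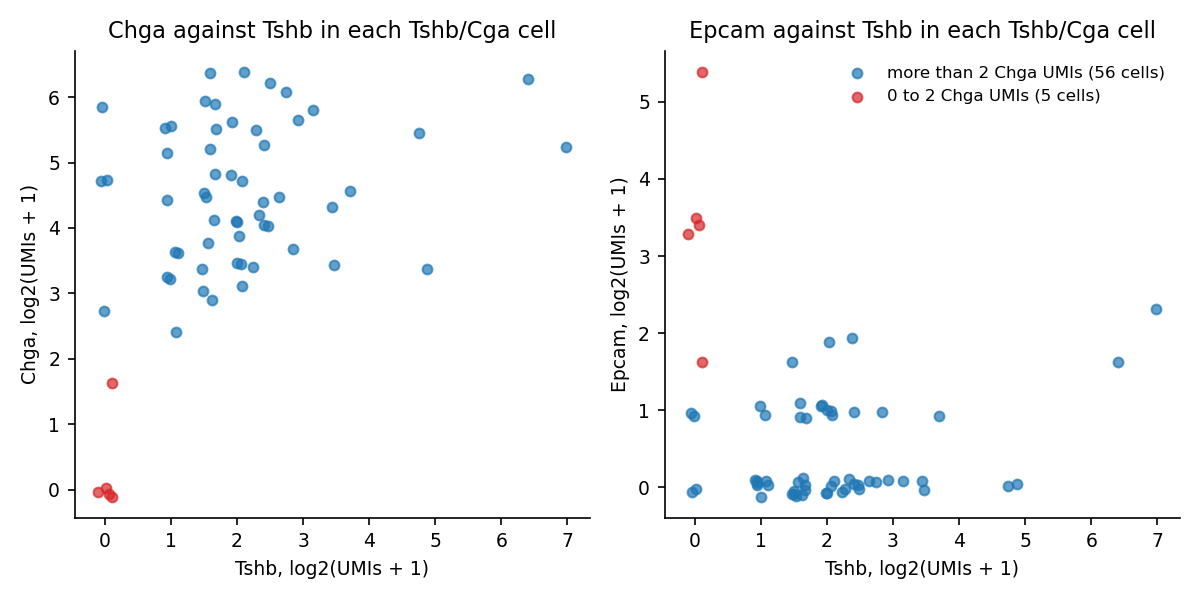
Each point is 1 of the 61 *Tshb*/*Cga* cells, with *Tshb* on the x axis and *Chga* (left) or *Epcam* (right) on the y axis, both as log2(UMIs + 1) with a small random shift so that points do not hide each other; blue marks the 56 cells with more than 2 *Chga* UMIs and red the 5 cells with 0 to 2. The red cells sit at 0 *Tshb*, and the 4 cells far to the right hold 26 to 118 *Tshb* UMIs. *Epcam* is a gene of the rule, which favoured it in cells without *Tshb* and *Chga*.

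Across libraries, *Tshb* and *Chga* stood above the other kept cells in all 13, which the choice of the cells favours. *Tshb* in the *Tshb*/*Cga* cells was 1,816, 1,842 and 1,555 CPM in the 3 wild-type oil libraries, 4,232, 3,385, 15,113 and 834 CPM in the 4 wild-type tamoxifen libraries with such cells, 7,474, 2,960 and 3,448 CPM in the 3 *Esr1* cKO oil libraries and 6,169, 3,597 and 40,100 CPM in the 3 *Esr1* cKO tamoxifen libraries. The 2 highest libraries were those with the cells of 84 and 118 UMIs. *Chga* ran from 10,100 to 52,000 CPM over the 13 libraries (median 31,590), against 103 to 307 CPM in the other kept cells of the same libraries. Its lowest library, wild-type tamoxifen 5, was the one with the deepest Chga-poor cell.

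Outside the rule, 192 genes had at least 30 UMIs in the *Tshb*/*Cga* cells and a UMI in at least 8 libraries, and the 25 with the highest ratio to all other kept cells, of which 24 are described here, fell into a few groups. As background, 28.7% of the 19,542 genes with 30 or more UMIs in kept cells had a higher CPM in the *Tshb*/*Cga* cells, and these genes were chosen for being higher. The secretory genes were *Chgb*, chromogranin B, at 14,226 CPM against 362 (39.3-fold), *Resp18*, a granule protein, at 2,811 against 483 (5.82-fold), and *Ptprn*, a dense-core vesicle protein, at 625 against 121 (5.17-fold). In neuron-like cells these stood at 923, 1,326 and 280 CPM, each above its level in all other kept cells and below that in the *Tshb*/*Cga* cells. *Chgb* was higher in 13 of 13 libraries, from 6,116 to 47,434 CPM against 197 to 552 CPM in other kept cells. The secreted ligands were *Cck*, the peptide cholecystokinin, at 4,840 CPM against 57.5 (84.1-fold, 279 UMIs in 50 cells), and *Figf*, the older symbol of Vegfd, a growth factor for lymphatic and blood vessels, at 711 against 7.77 (91.5-fold). *Cck* was higher in 13 of 13 libraries, from 1,645 to 9,822 CPM, and its level in neuron-like cells was 145 CPM.

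Transcription factors and clock genes formed the next group. *Gata2* was 23.3-fold and *Hlf*, a factor of the D-box family, 10.2-fold higher, each in 13 of 13 libraries. For *Gata2*, at most 59.0 CPM in other kept cells, 1 UMI was enough to be higher. Even in wild-type tamoxifen 5, the library with the most UMIs in these cells, 1 UMI is 92.7 CPM. *Rorb*, an orphan nuclear receptor, was 9.16-fold higher, and *Nr4a1*, an immediate early nuclear receptor, 6.26-fold. *Timeless*, a protein of replication forks that also touches the clock, stood at 625 CPM against 12.2 (51.2-fold, 36 UMIs in 17 cells) and was higher in the 11 libraries where it was found.

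Lipid and epithelial genes were also among them. *Apoc3*, an apolipoprotein best known from liver, had 72 UMIs in 27 cells of 10 libraries (1,249 CPM against 4.74, 264-fold), and *Ces1d*, a carboxylesterase, had 179 UMIs in 46 cells of 13 libraries (3,105 CPM against 14.3, 217-fold). *Krt8*, the keratin partner of *Krt18*, was 109-fold higher, *Wfdc2* 196-fold and *Spint2*, an epithelial protease inhibitor, 9.74-fold. Of these, *Apoc3* was mostly in the Chga-rich cells (64 of 72 UMIs), whereas *Wfdc2* (62 of 74 UMIs), *Krt8* (18 of 31 UMIs), *Spint2* (17 of 30 UMIs) and *Ly6e* (84 of 103 UMIs) lay mostly in the 5 Chga-poor cells. The remaining 9 of the 24 were *Dnajb1*, a heat shock co-chaperone, *Igfbp5*, a binding protein of insulin-like growth factors, *Mt2*, a metallothionein, *Fosb* and *Btg2*, both immediate early genes, and *Emb*, *Ly6e*, *Plcb4* and *Anxa5*, at 4.35- to 10.4-fold. Of these, *Anxa5* was as high in ciliated ependymal-like cells (889 CPM, against 867 in the *Tshb*/*Cga* cells), where *Mt2* stood at 1,345 CPM against 2,429, and *Fosb* stood at 1,350 CPM in tanycyte-like cells against 2,203. Leaving out the 4 cells found deeper elsewhere moved the level of *Apoc3* to 1,255 CPM.

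A deeper look at the same profile came from barcodes that the gene limit removes. Of 446 barcodes with 4000 genes or more, 8 held at least 10 UMIs of *Tshb* plus *Cga*, and the gap was wide: the lowest of the 8 had 77 such UMIs and the highest of the other 438 had 8. The 8 came from 7 libraries, held 21,826 to 63,416 UMIs each and carried 4 to 8 exclusion genes, and how many cells each holds was not tested. They include the deep barcodes that 4 of the *Tshb*/*Cga* cells share, in wild-type oil 1, *Esr1* cKO oil 2 and wild-type tamoxifen 2. The 8 and the 61 are thus not fully separate. They were chosen by *Tshb* and *Cga*, so these genes are no finding in them, but at 315,340 UMIs they read the other genes more deeply than the 61 cells. All 24 genes above were higher in the 8 than in the other 438: *Cck* at 4,208 CPM against 40.5, *Apoc3* at 1,345 against 4.84, *Ces1d* at 1,985 against 36.0, *Timeless* at 539 against 8.47, *Hlf* at 1,205 against 93.6 and *Gata2* at 482 against 59.8. *Mtnr1a*, near 0 in the *Tshb*/*Cga* cells, had 16 UMIs in the 8 (50.7 CPM against 0.941), and *Trhr* and *Pou1f1* had 0 (limit 9.51 CPM). Among the 8, the 2 barcodes of wild-type tamoxifen 3 also held *Anxa1* at 2,759 and 1,802 CPM, where the others held 0 to 122 CPM.

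**Figure D2:**
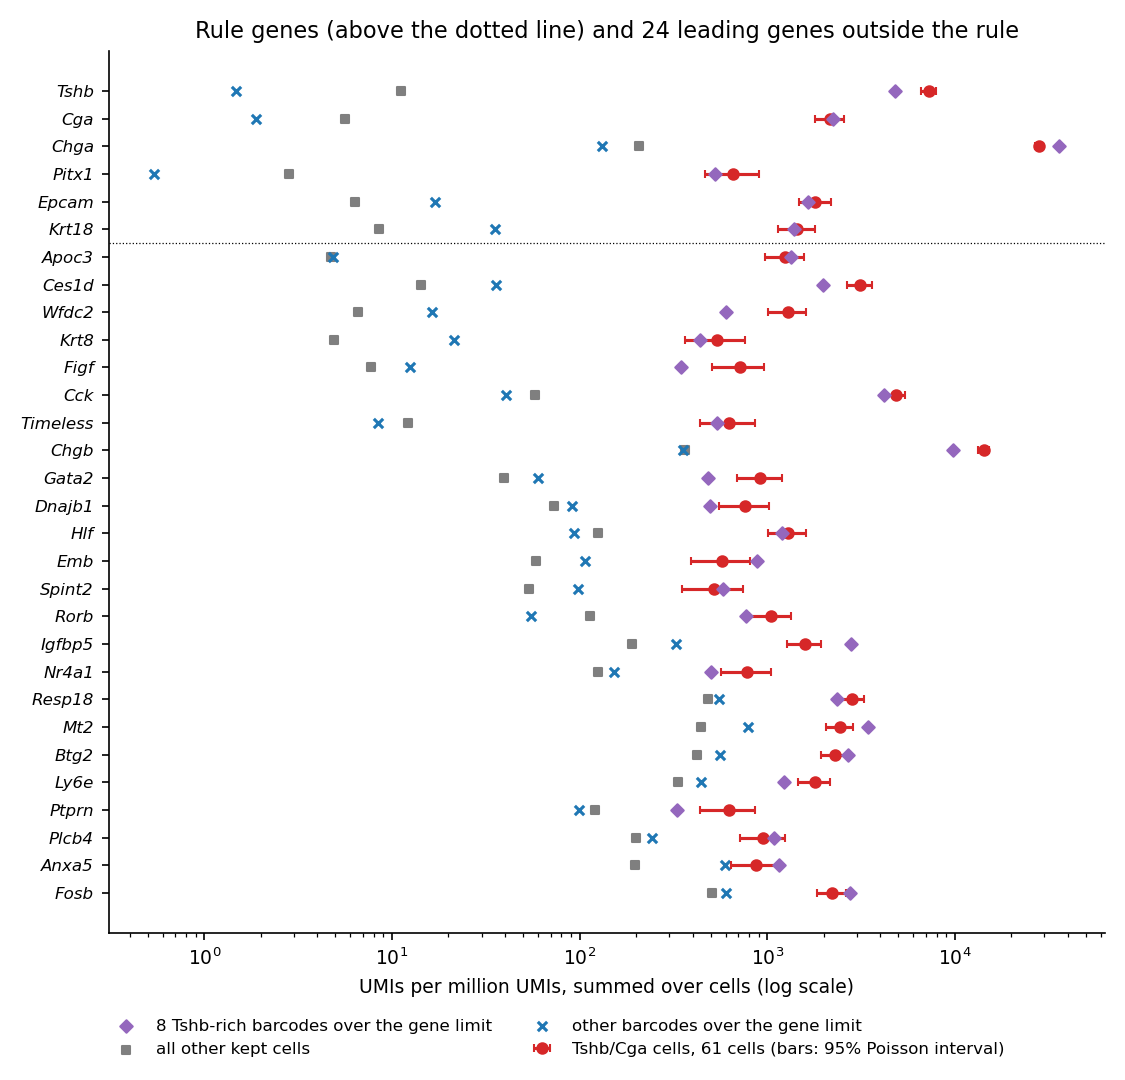
CPM (log scale) of the 6 rule genes, above the dotted line, and of 24 of the 25 leading genes outside the rule, in the 61 *Tshb*/*Cga* cells (red, with 95% Poisson intervals that cover counting error only), in the 8 Tshb-rich barcodes over the gene limit (purple), in all other kept cells (grey) and in the other 438 barcodes over the gene limit (blue). The red and purple marks lie to the right of the grey and blue ones for all genes shown.

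Gene lists for the pathways of these cells were then read as counts, with a median only over genes at or above 52.0 CPM in other kept cells, where the *Tshb*/*Cga* cells are expected to hold 3 UMIs. Over all 4,536 such genes, 35.6% were higher in the *Tshb*/*Cga* cells, and the median log2 ratio (0.5 UMI added to both sums) was -0.21. Of the melatonin and photoperiod list, 13 of 15 genes had a UMI, and the named members were *Eya3* and *Hlf*, given above, and *Tef*, another D-box factor, with 9 UMIs (156 CPM against 113), and 4 of the 7 genes of the list at or above the limit were higher (median 0.19). The G-protein genes through which melatonin receptors signal were not high: *Gnai1* had 1 UMI (17.3 CPM against 213), *Gnai2* stood at 295 CPM against 266 and *Gnai3* was at 0. Of the clock list, 17 of 18 genes in the files had a UMI, and 5 of the 9 at or above the limit were higher (median 0.26). Among its repressors, *Per1* had 15 UMIs (260 CPM against 45.0), *Per3* 17 (295 against 59.5), *Bhlhe40* 25 (434 against 76.5) and *Cry1* 0.

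In the thyroid axis, 8 of 15 genes had a UMI, a share near the 51.1% over all genes, and 3 of the 6 at or above the limit were higher (median 0.20). *Tshr*, the receptor of thyrotropin itself, had 16 UMIs in 10 cells of 5 libraries, all among the Chga-rich cells (278 CPM against 11.4). It stood at 62.6 CPM in tanycyte-like cells and at 187 in the 8 large barcodes. *Thrb*, the thyroid hormone receptor that represses *Tshb* in the pituitary, had 10 UMIs (173 CPM against 58.1) and *Thra* 4 (69.4 against 204). The deiodinases *Dio1*, *Dio2* and *Dio3* and the hormone *Trh* were at 0, whereas *Dio2* stood at 118 CPM in tanycyte-like cells.

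For sex steroid signaling, *Esr1*, *Esr2*, *Pgr*, the progesterone receptor, and *Greb1*, an estrogen-induced gene, were at 0. In the 8 large barcodes, *Esr1* stood at 25.4 CPM against 39.8 in the other large barcodes, and *Esr2* at 28.5 against 20.4. Of the 7 genes of this list at or above the limit, 1 was higher (median -1.79).

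Of the secretory list, 20 of 23 genes had a UMI and 8 of the 17 at or above the limit were higher (median -0.04). Beside *Chgb*, *Resp18* and *Ptprn*, *Rab3b*, a vesicle GTPase, stood at 399 CPM against 36.6, but the prohormone convertases *Pcsk1* and *Pcsk2* were at 0, and *Pcsk1n*, the convertase inhibitor, stood at 208 CPM against 579. Genes for folding and export of glycoproteins, the class to which thyrotropin belongs, were higher for 15 of the 19 at or above the limit (median 0.73): *Hspa5*, the chaperone BiP, at 1,839 CPM against 741, *Pdia6*, a disulfide isomerase, at 503 against 151, and *Creb3l1*, a regulator of the secretory pathway, at 104 against 5.87. Immediate early and stress genes were higher for 14 of 16 (median 1.49), among them *Egr1* at 2,637 CPM against 686, *Fosb* at 2,203 against 507 and *Atf3* at 1,319 against 309. Of the 17 epithelial genes, 14 had a UMI, beside 51.1% over all genes, and 2 of the 3 at or above the limit were higher (median 1.13). The 17 summed to 2,307 CPM against 275. *Krt8*, the member with the most UMIs, held 18 of its 31 in the 5 Chga-poor cells. Immediate early genes also respond to dissociation of tissue, and tanycyte-like cells held *Fos* at 3,816 CPM against 3,609 in the *Tshb*/*Cga* cells. The part of dissociation was not tested.

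**Figure D3:**
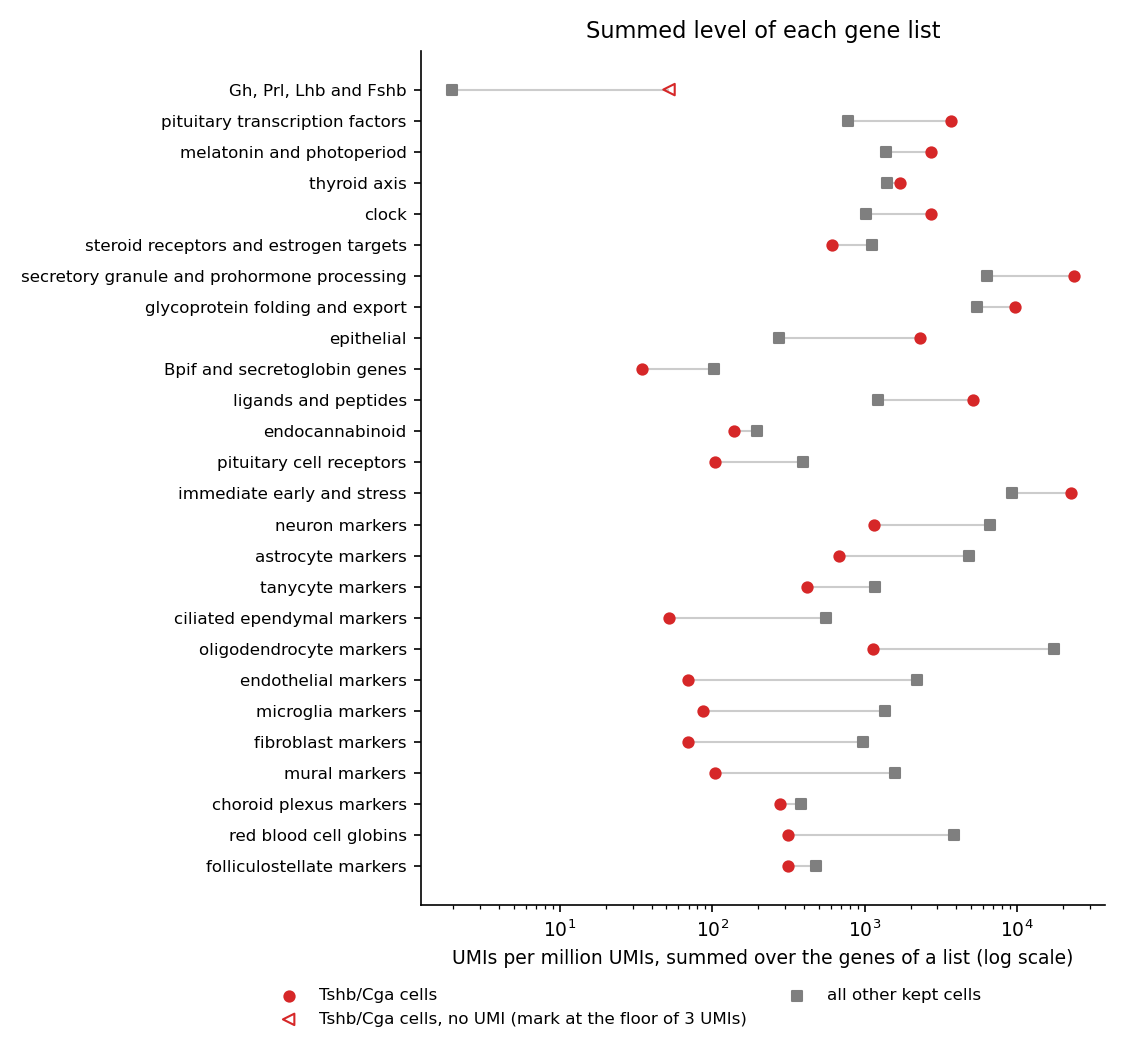
Summed CPM (log scale) over the genes of each list, in the 61 *Tshb*/*Cga* cells (red) and in all other kept cells (grey); the open mark stands at the floor of 3 UMIs where no UMI was found. The pituitary transcription factor, secretory, epithelial and immediate early lists lie to the right in the *Tshb*/*Cga* cells, and the pituitary cell receptors and the lists of brain and vessel cell types to the left.

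Markers of other cell types were low. The 8 oligodendrocyte markers summed to 1,128 CPM against 17,420.5, with *Mbp* the highest at 29 UMIs and *Mog*, *Mag* and *Ermn* at 0. The 8 neuron markers summed to 1,145 CPM against 6,662, with 33 UMIs of *Meg3*, and 0 of *Gad1* and *Rbfox3*. Astrocyte markers summed to 677 CPM against 4,824, with *Aldoc* the highest at 12 UMIs and *Aqp4* at 0. Endothelial (69.4 against 2,202), microglial (86.7 against 1,364), fibroblast (69.4 against 979), mural (104 against 1,575), ciliated ependymal (52.0 against 558) and tanycyte markers (416 against 1,172) were all lower in sum, with 5 to 7 of the 8 endothelial, microglial, fibroblast or mural markers at 0, as were the globins of red blood cells (312 against 3,872). Some of these genes are exclusion genes of the rule. Of the 8 choroid plexus markers, *Folr1*, a folate receptor, had 14 UMIs (243 CPM against 5.63), 10 of them in the Chga-poor cells, with *Ttr* at 2 UMIs and 6 markers at 0. Of 7 folliculostellate markers, a supporting cell of the pituitary, 3 were at 0 and *S100b* had 3 UMIs (52.0 CPM against 255). Of 20 ligands 11 were at 0, near the share over all genes (9,561 of 19,542), and of 18 receptors of pituitary cells 15 were at 0. *Bpifa1* and *Bpifb1* were at 0, with 2 UMIs of *Sftpd* in the list of Bpif and secretoglobin genes, and the 6 endocannabinoid genes held 8 UMIs.

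The share of kept cells that were *Tshb*/*Cga* cells was low and uneven in all groups. It was 0.172%, 0.0921% and 0.0311% in the wild-type oil mice, 0%, 0.128%, 0.0718%, 0.164% and 0.158% in the wild-type tamoxifen mice, 0%, 0.440%, 0.166% and 0.0614% in the *Esr1* cKO oil mice and 0.109%, 0%, 0.0973% and 0.0779% in the *Esr1* cKO tamoxifen mice. The highest library, *Esr1* cKO oil 2, had 12 such cells (95% Clopper-Pearson interval 0.227% to 0.767%), and the 0 in wild-type tamoxifen 1, *Esr1* cKO oil 1 and *Esr1* cKO tamoxifen 2 allow up to 0.0834%, 0.0978% and 0.159% (3 cells, counting error only). Group means were 0.0983% ± 0.0706 (SD, n = 3), 0.104% ± 0.0687 (SD, n = 5), 0.167% ± 0.194 (SD, n = 4) and 0.0710% ± 0.0490 (SD, n = 4), so all groups overlapped.

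**Figure D4:**
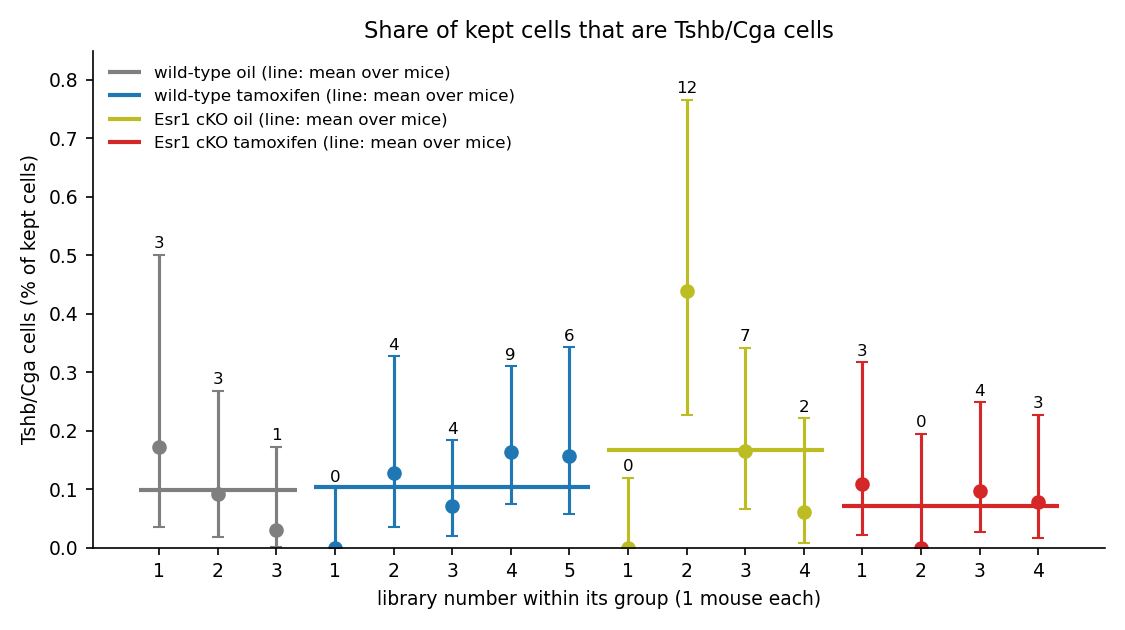
Share of kept cells that are *Tshb*/*Cga* cells in each library, 1 mouse each, by group (y axis in percent of kept cells; bars: 95% Clopper-Pearson intervals; number above each bar: *Tshb*/*Cga* cells; horizontal lines: means over mice). The intervals of most libraries overlap, and the highest share, 0.440%, is that of *Esr1* cKO oil 2.

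No difference in this share between conditions exceeded the spread between mice. The difference, tamoxifen minus oil, was 0.00597 percentage points in wild-type mice (two-sided exact permutation test over mice, p = 0.964), -0.0958 in *Esr1* cKO mice (exact p = 0.514) and -0.0449 over both genotypes (exact p = 0.516), and the tamoxifen effects of both genotypes differed by -0.102 (exact p = 0.436). Without *Esr1* cKO oil 2, tamoxifen minus oil was -0.0049 points in *Esr1* cKO mice and 0.000533 over both genotypes. *Esr1* cKO minus wild-type gave 0.0685 points under oil (exact p = 0.800, where the design cannot go below 0.0571) and -0.0333 under tamoxifen (exact p = 0.444). Adjusted over the 6 comparisons, the p-values of these exact tests lay between 0.774 and 0.964. Within the sets of libraries that share barcodes, the tamoxifen difference was negative in 2 of 3 sets in wild-type mice (-0.0921 to 0.0407 points) and in 2 of 4 in *Esr1* cKO mice (-0.342 to 0.109), and the set to which no wild-type oil library was assigned was not used for wild-type mice, though wild-type oil 2 shares barcodes with it. Without the 4 cells found deeper elsewhere, 57 *Tshb*/*Cga* cells remained, in the same 13 libraries, and tamoxifen minus oil was 0.00979 points in wild-type (exact p = 0.893) and -0.0839 in *Esr1* cKO mice (exact p = 0.629).

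*Tshb* was also summed over all kept cells, which does not depend on the rule. It was 16.3, 12.2 and 17.1 CPM in the wild-type oil mice, 2.09, 8.34, 8.61, 44.8 and 9.98 in the wild-type tamoxifen mice, 2.32, 30.7, 35.9 and 3.63 in the *Esr1* cKO oil mice and 16.6, 4.51, 14.1 and 41.2 in the *Esr1* cKO tamoxifen mice. In each tamoxifen group 1 mouse, wild-type 4 and *Esr1* cKO 4, lay above the rest, and the groups overlapped. Such a sum cannot tell fewer cells of a type from less RNA per cell. Tamoxifen minus oil was -0.467 CPM in wild-type mice (two-sided exact permutation test, p = 0.786), and -7.97 CPM without wild-type tamoxifen 4 (exact p = 0.0571, the smallest that design allows, adjusted p = 0.343). It was 1.02 CPM in *Esr1* cKO mice (exact p = 0.943) and 0.274 over both (exact p = 0.976), and the effects differed by 1.48 (exact p = 0.908). *Esr1* cKO minus wild-type was 2.90 CPM under oil (exact p = 0.743) and 4.38 under tamoxifen (exact p = 0.556). The adjusted p was 0.976 for each of the 6. Within the sets that share barcodes, tamoxifen mice were lower in all 3 wild-type pairings that could be made (-10.1 to -7.97 CPM) and in 2 of 4 in *Esr1* cKO mice (-31.4 to 37.6). The 2 wild-type tamoxifen mice of the set with no wild-type oil library assigned, at 44.8 and 9.98 CPM, enter none of these pairings, and they lie on both sides of the 12.2 CPM of wild-type oil 2, which shares barcodes with them.

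Most *Tshb* transcripts of the series lay outside the kept cells. Of 2,736 *Tshb* UMIs, the 8 large barcodes held 1,520 (55.6%), the *Tshb*/*Cga* cells 417 (15.2%), the 42 cells with 2 or more exclusion genes 473 (17.3%) and the other 438 large barcodes 11 (0.402%). Counted over all barcodes, *Tshb* was 37.5 ± 45.4 CPM (SD, n = 3) in wild-type oil, 28.1 ± 28.9 (SD, n = 5) in wild-type tamoxifen, 42.6 ± 37.4 (SD, n = 4) in *Esr1* cKO oil and 25.5 ± 20.2 (SD, n = 4) in *Esr1* cKO tamoxifen mice. The SD exceeded the mean in both wild-type groups and was below it in both *Esr1* cKO groups.

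**Figure D5:**
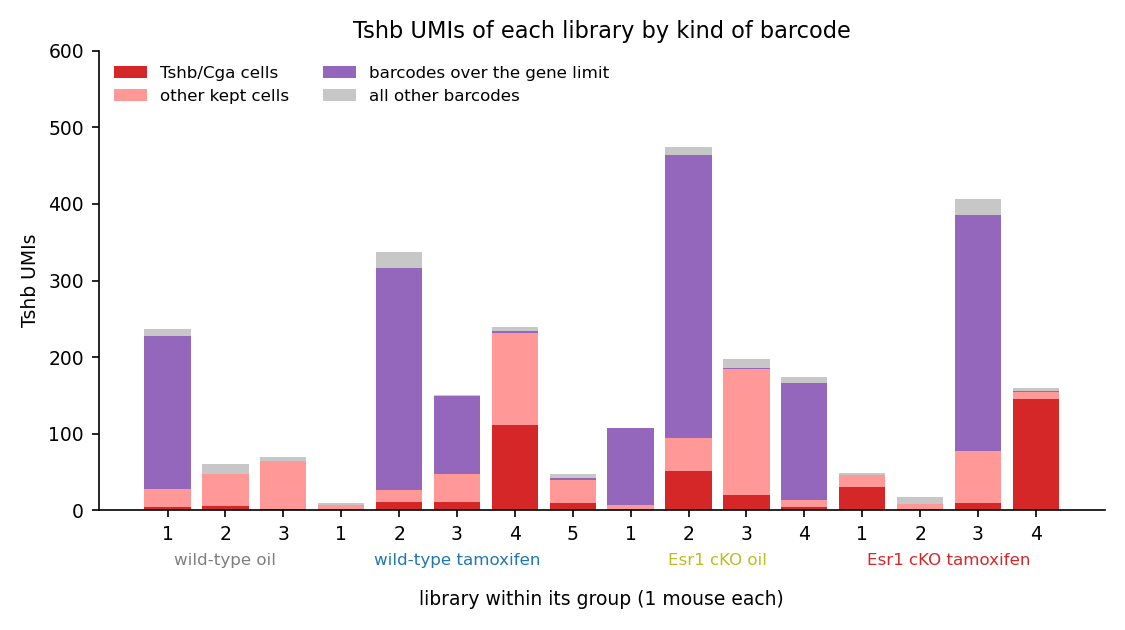
*Tshb* UMIs of each library (y axis), 1 mouse each, stacked by kind of barcode: *Tshb*/*Cga* cells, other kept cells, barcodes of 4000 genes or more, and all other barcodes. The 8 Tshb-rich barcodes over the gene limit make up most *Tshb* UMIs of the 7 libraries that hold one, as in *Esr1* cKO oil 2 with 474 *Tshb* UMIs in all.

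Within the *Tshb*/*Cga* cells, no gene passed the main test between conditions. UMIs were summed per mouse over these cells in the 13 libraries that had any, and 24 genes had enough UMIs to be tested with edgeR's quasi-likelihood test. In each of the 6 comparisons 0 of 24 genes were called at an adjusted p under 0.05 (Benjamini-Hochberg; 0% of genes tested), with 1 to 3 genes at an unadjusted p under 0.05. DESeq2, which tested 10,052 genes, also called 0, with 3 to 34 at an unadjusted p under 0.05. *Tshb*, *Cga* and *Chga* are among the 24 genes but were used by the rule, so no test of them is reported as a result. Calls of *Tshb* under other settings are listed at the end and are not read as a change. The unadjusted edgeR counts include *Tshb*, which was the only gene counted for *Esr1* cKO minus wild-type under tamoxifen. These sums rest on 1 to 12 cells per mouse.

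In the fit of all 4 groups, the genes outside the rule with the smallest p did not pass. Differences from edgeR in this paragraph and the next are log2 fold changes, with the standard error after ±. *Fos*, an immediate early gene, gave 2.73 ± 0.92 for tamoxifen minus oil in wild-type mice (edgeR, adjusted p = 0.129, 0% of genes tested were called). Its level was 726, 921 and 0 CPM in the oil libraries and 6,926, 1,846, 1,214 and 6,579 CPM in the tamoxifen libraries. In *Esr1* cKO mice the oil libraries stood at 3,664, 2,960 and 8,276 CPM and the tamoxifen libraries at 4,524, 1,439 and 4,425 CPM. The tamoxifen effects on *Fos* differed by -2.90 ± 1.21 (edgeR, adjusted p = 0.288). Under oil, *Fos* was 2.84 ± 0.97 higher in *Esr1* cKO than in wild-type mice and *Chgb* 1.83 ± 0.66 lower, neither past the threshold (edgeR, adjusted p = 0.110 each), and *App*, the amyloid precursor, gave 2.09 ± 0.96 (edgeR, adjusted p = 0.284). Fitted with only the groups compared, *Chgb* gave a smaller difference, -1.20, and was called (edgeR over 10 genes, adjusted p = 0.00547). *Jun*, the partner of *Fos*, gave 2.0 ± 1.01 in wild-type mice (edgeR, adjusted p = 0.352), and *Mt2*, a metallothionein, -1.78 ± 0.79 in *Esr1* cKO mice (edgeR, adjusted p = 0.372). *Egr1* gave -1.16 ± 0.73 in *Esr1* cKO mice (edgeR, adjusted p = 0.635), and its tamoxifen effects differed by -2.32 ± 1.02 and those of *Chgb* by 1.77 ± 0.88 (edgeR, adjusted p = 0.288 each). In wild-type mice *Egr1* gave 1.16 ± 0.71 (edgeR, adjusted p = 0.439). Its wild-type libraries stood at 1,535 to 1,816 CPM under oil and at 2,294 to 5,002 CPM under tamoxifen. Over both genotypes *Fos* gave 1.28 ± 0.61 and *Jun* 1.31 ± 0.68 (edgeR, adjusted p = 0.492 and 0.494). Under tamoxifen, *Esr1* cKO minus wild-type gave -1.62 ± 0.82 for *Ces1d* and -1.43 ± 0.75 for *Mt2* (edgeR, adjusted p = 0.473 each).

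The 5 Chga-poor cells move some of these values, and none of them came from a wild-type oil mouse. Without them *Chgb* stood at 15,345 CPM instead of 8,880 in *Esr1* cKO oil 3 and at 21,739 instead of 6,116 in wild-type tamoxifen 5, *Fos* at 3,623 CPM instead of 6,579 in wild-type tamoxifen 5, and *App* at 1,023 CPM instead of 3,700 in *Esr1* cKO oil 3. Under oil, *Esr1* cKO minus wild-type was then 2.80 ± 0.92 for *Fos* and -1.63 ± 0.62 for *Chgb* (edgeR over 20 genes, adjusted p = 0.0560 and 0.0964), and under tamoxifen it was -2.57 ± 0.84 for *Ces1d* (edgeR, adjusted p = 0.0521). For *Fos*, tamoxifen minus oil in wild-type mice was then 2.48 ± 0.89 (edgeR, adjusted p = 0.0595). None of these passed the threshold, and *App* had too few UMIs to be tested.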

How the data were processed

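Libraries of 1 mouse each were made by Drop-seq. For each library the authors deposited a sparse matrix of raw UMI counts with its lists of gene symbols and barcodes, neither normalized nor pooled. The submitters' notes name STAR 2.6, Seurat 3.6.1 and mm10. The methods of the study give 3.6.1 as the version of R and another version number for Seurat. The counting program and annotation are not given in the sources used here. The study's cell filter (200 to 4000 genes, 15% mitochondrial UMIs) was applied here to 146,538 deposited barcodes, not before deposit. Depth per library is given with the data above. The members and gene lists were chosen with earlier results of these data known. Neuron-like and ciliated ependymal-like cells had at least 3 of 8 fixed markers, and tanycyte-like cells at least 2 of 7.

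Levels (CPM) are summed over cells and scaled to the UMI total of those cells, with exact Poisson intervals. Shares were compared by two-sided exact permutation tests over mice, adjusted by Benjamini-Hochberg over 6 comparisons. Counts summed per mouse were tested with edgeR 4.0.16 (TMM, filterByExpr, quasi-likelihood, 4 groups in 1 fit), with DESeq2 1.42.0 as an alternative, in R 4.3.3, after a check on simulated data. The planned minimum of 5 such cells per library left 4 libraries and could not be fitted, so libraries with at least 1 cell were used. Genes named are those of the lists, the 25 leading genes and, per comparison, the 3 with the smallest p, and a few genes of the lists, 1 of them a leading gene, are not reported here. Intervals cover counting error only. Per the methods of the study, all groups were processed in parallel over 4 days, but the labels do not tie a sample to its day or litter. Promoters came from RefSeq (both genes matched). Scripts used Python 3.11.15, scipy 1.17.1 and pandas 2.3.3.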

Additional observations from a re-analysis of the deposited data

Results flagged for a closer look

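*Tshb* over all kept cells of wild-type tamoxifen 4 was 44.8 CPM, far from the 2.09 to 9.98 CPM of the other 4 wild-type tamoxifen mice: its gap to the nearest of them, divided by the range of the group, was 0.815, above the critical value of 0.71 for 5 mice. Chance alone flags about 1 group in 20, and 12 groups of values were screened. Without this mouse, tamoxifen minus oil in wild-type mice was -7.97 CPM (two-sided exact permutation test, p = 0.0571, the smallest that design allows, adjusted p = 0.343), against -0.467 CPM with it. Of the 231 *Tshb* UMIs of that library, 112 lay in its 9 *Tshb*/*Cga* cells, 84 of them in 1 cell. Without the *Tshb*/*Cga* cells its level was 23.1 CPM.

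The 8 barcodes over the gene limit with 10 or more UMIs of *Tshb* plus *Cga* are removed by the cell filter, so they enter the comparisons between conditions only where all deposited barcodes were counted. They held 1520 *Tshb* UMIs, and the number per group was 1 in wild-type oil, 3 in wild-type tamoxifen, 3 in *Esr1* cKO oil and 1 in *Esr1* cKO tamoxifen mice.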

How the results depend on the processing

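No direction of the share or of *Tshb* over kept cells was past its threshold under any setting run, so the changes of sign below are changes within the spread between mice. By replicate number, no paired analysis was possible because the labels tie no mice of different groups together, whereas differences within the sets of libraries that share barcodes are given with the results. With these sets as a term, or successive fours of library numbers, whose meaning the labels do not give, edgeR called 0 genes in each of the 6 comparisons (smallest adjusted p over both genotypes 0.689 and 0.679). The smallest adjusted p of any comparison was 0.486 with the sets and 0.0717 with the fours (edgeR), both for *Esr1* cKO minus wild-type under oil. The minimum of 5 or 10 cells per library could not be fitted. Settings with shared barcodes, exclusion genes without a limit, sets of libraries as a term or more than 2 *Chga* UMIs were chosen after seeing the data. Depth limits all values: 61 cells give few UMIs per gene. The cause of the changes was not tested.

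For the share in percentage points, tamoxifen minus oil in wild-type mice became -0.0560 with at least 4 UMIs of *Tshb* plus *Cga*, -0.00379 with no exclusion gene, -0.0245 with more than 500 genes, -0.00153 with under 5% mitochondrial UMIs, -0.0277 without both libraries that stand apart and -0.0680 with no limit on exclusion genes. *Esr1* cKO minus wild-type under oil became -0.0128 with no exclusion gene, -0.0217 with more than 500 genes and -0.00206 with under 5% mitochondrial UMIs, and under tamoxifen 0.0136 with at least 4 UMIs and 0.00141 with more than 500 genes, where the difference of effects became 0.0231. Leaving out each mouse in turn gave -0.0277 to 0.0427 in wild-type mice, -0.151 to -0.0049 in *Esr1* cKO mice, -0.0727 to 0.000533 over both, -0.157 to -0.0109 for the difference of effects, -0.0224 to 0.124 for genotype under oil and -0.0594 to -0.00962 under tamoxifen.

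For *Tshb* CPM of all kept cells, under 5% mitochondrial UMIs turned the wild-type tamoxifen effect to 9.61, the difference of effects to -9.20 and the genotype difference under tamoxifen to -9.18. Counting all deposited barcodes gave -9.45 in wild-type mice, -17.1 in *Esr1* cKO mice, -13.3 over both, -7.69 for the difference of effects and -2.57 for genotype under tamoxifen. Without both libraries that stand apart the wild-type effect was 0.497. Without barcodes shared between libraries the values were 5.07 in wild-type mice, -6.68 in *Esr1* cKO mice, -0.809 over both, -11.7 for the difference of effects and -4.07 for genotype under tamoxifen. Leaving out each mouse gave -7.97 to 2.70, -6.35 to 6.93, -3.48 to 3.23, -5.89 to 8.98, -3.02 to 8.16 (oil) and -2.99 to 11.9 (tamoxifen) in the same order.

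The count of genes changed within the *Tshb*/*Cga* cells was 0 throughout, except 1 in these settings: *Anxa1* over both genotypes with no filter on low counts, *Cck* in *Esr1* cKO mice with no exclusion gene, *Chgb* for genotype under oil with only the groups compared, and *Tshb* over both genotypes with more than 2 *Chga* UMIs (20 genes tested, edgeR). Leaving out each mouse gave 0 to 1 over both genotypes, with *Tshb* called without wild-type tamoxifen 3 or wild-type tamoxifen 5 (edgeR). *Tshb* is a gene of the rule, so these calls are not read as a change.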
